A study of Mus musculus with 24 samples.

Results

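Schwann cell myelin genes are the genes through which the glial cells of peripheral nerve build and maintain the myelin sheath around axons. The members were Mbp, Pmp22, Prx, Mag, Sox10, S100b, Egfl8 and Pmp2, found as the probes whose gene name on the array is one of these 8. They have 15 of the 56605 probes on the array. Of these, 12 probes, covering 7 of the 8 genes, were kept because the scanner software had put them well above background on 6 or more of 8 arrays in some group. Each gene was tested through its brightest kept probe, 1 of 19937 gene names. Pmp2 was not tested.

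The 24 one-colour Agilent arrays measured total RNA from skeletal muscle of mice. HFD_O3 were 8 samples of mice of the O3 lineage on the diet HFD, which the series design calls an omega 3 lineage on high fat. HFD_Cont were 8 samples of the control lineage (Cont) on HFD. STD_Cont were 8 samples of the control lineage on the diet STD, a control low fat diet. No group joins the O3 lineage with STD, so in HFD_O3 against STD_Cont diet and lineage cannot be told apart. Any pair of the 3 comparisons shares the 8 arrays of 1 group. The alleles behind the lineages, the strain, the muscle, the sex, the age and the length of feeding are not in the sources used here.

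In a peripheral nerve, myelinating Schwann cells wrap single axons with many turns of membrane that compact into an insulating sheath, and Sox10 drives the genes of this lineage, with Egr2, in the promyelinating and myelinating cell. Pmp22 and Mbp lie in compact myelin, Mag at the face towards the axon and Prx at the outer face towards the basal lamina. In muscle, myelinating Schwann cells lie along the nerve branches that run through the tissue, and non-myelinating terminal Schwann cells cover the neuromuscular junctions. In such bulk RNA, fewer Schwann cells and less RNA per cell cannot be told apart.

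The labelled tissue was checked by its fibre genes. All 12 of 12 muscle fibre genes were kept, and their mean level lay between 8.92 and 9.30 in HFD_O3, 8.51 and 9.31 in HFD_Cont and 8.96 and 9.34 in STD_Cont. Levels here are log2 signals relative to the array's own 75th percentile, so that 0 is as bright as that percentile, and they were not set against each other between probes. On each array 52.0 to 60.7% of spots exceeded background clearly, 0 spots were saturated, and the 24 arrays limit the precision. The arrays lie on 3 slides, each with 2 or 3 arrays of every group. Mag and Mbp have kept probes that did not move together, as described below.

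The probes are 60 bases long, and the first 30 bases of those on which the results turn are given here, with their place on mm9 per the file headers. They are shown because the probes of Mag behaved differently and the brightest Egfl8 probe lies against another gene's probe. Capitals mark letters within a run of at least 15 bases that, on either strand, also occurs in a probe of another gene name.
Prx probe 1, chr7:28304999-28305058, plus strand: cctcattggccaaAGTGCCTGTATATCAtg
Pmp22 probe 1, chr11:62972929-62972988, plus strand: tgtatatacggtgtccttctgatgctaaga
Sox10 probe 1, chr15:78985343-78985402, minus strand: ttgcattaagcactccaagtaatataatca
S100b probe 1, chr10:75723783-75723842, plus strand: gaagctggacttgaggctttctaacttgca
Mag probe 2, chr7:31684202-31684261, minus strand: tgtcccttacctggccccaggacctgtaca
Mag probe 1, chr7:31692616-31692675, minus strand: gagaattatttgccaTGAGTTCAAGGCCAG
Egfl8 probe 1, chr17:34750305-34750364, minus strand: GTCTCTCTTTCTCTTTATTTTCAGTTGCTT
Of the 56605 probes, 43.6% shared such a run with at least 1 probe of another name. Sox10 and S100b shared none. Prx probe 1 and Pmp22 probe 1 each shared a run with 1 other probe. Mag probe 2 shared runs with 2 other probes, outside the bases shown, and Egfl8 probe 1 with 7. Mag probe 1 shared runs with 5 other probes, which 2.75% of all probes equalled or exceeded. The Egfl8 probe shared 58 of its bases, in the opposite orientation, with a probe named Agpat1, and after subtracting group means the 2 probes correlated with r = 0.73 over 24 arrays. How far any of these runs affects a signal was not tested.

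Prx encodes periaxin, a scaffold protein that ties the outer Schwann cell membrane to the basal lamina through dystroglycan. Its brighter probe had a lowest, median and highest level of 0.63, 1.1 and 1.67 in HFD_O3, of 0.74, 1.33 and 3.11 in HFD_Cont and of 0.73, 2.09 and 3.20 in STD_Cont. The groups overlapped, but no HFD_O3 array reached the STD_Cont median, and 6 of the 8 STD_Cont arrays lay above the highest HFD_O3 array. The mean was 1.16 ± 0.43 in HFD_O3 and 1.99 ± 0.72 in STD_Cont (SD, n = 8 each), a log2 change of −0.82 ± 0.31 (SE, 95% interval −1.47 to −0.18). The change did not pass limma's test after Benjamini-Hochberg adjustment over all 19937 names (adjusted p = 0.282). HFD_Cont had a mean of 1.57 ± 0.78. The log2 difference of Prx was −0.41 ± 0.31 in HFD_O3 against HFD_Cont (limma, adjusted p = 0.807) and −0.42 ± 0.31 in HFD_Cont against STD_Cont (limma, adjusted p = 0.565). The second Prx probe, 666 bases away on the same strand, had a log2 change of −0.37 ± 0.18 in HFD_O3 against STD_Cont, and its median was −1.22 in HFD_O3, −1.19 in HFD_Cont and −0.93 in STD_Cont.

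Pmp22 encodes a membrane protein of compact myelin in which both extra and missing gene copies cause inherited neuropathies in humans. It is also made by other cells. Probe 1 ran over 3.23, 3.60 and 4.04 (lowest, median, highest) in HFD_O3, 3.53, 3.74 and 5.19 in HFD_Cont and 3.28, 4.16 and 5.15 in STD_Cont. Again 6 of 8 STD_Cont arrays lay above all HFD_O3 arrays. The log2 change was −0.60 ± 0.23 in HFD_O3 against STD_Cont (95% interval −1.07 to −0.12; limma, adjusted p = 0.289). It was −0.41 ± 0.23 in HFD_O3 against HFD_Cont and −0.19 ± 0.23 in HFD_Cont against STD_Cont, and passed the test in neither (limma, adjusted p = 0.732 and 0.755). Probe 2, 1067 bases away, had smaller differences, of −0.22 ± 0.17 in HFD_O3 against STD_Cont and −0.25 ± 0.17 in HFD_O3 against HFD_Cont. In HFD_Cont against STD_Cont probe 2 was at 0.03 ± 0.17, on the other side of 0 from probe 1. Probe 3, named Pmp22 but lying 29043 bases away on the other strand, exceeded background clearly on 0 of 24 arrays and is not used.

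**Figure D1:**
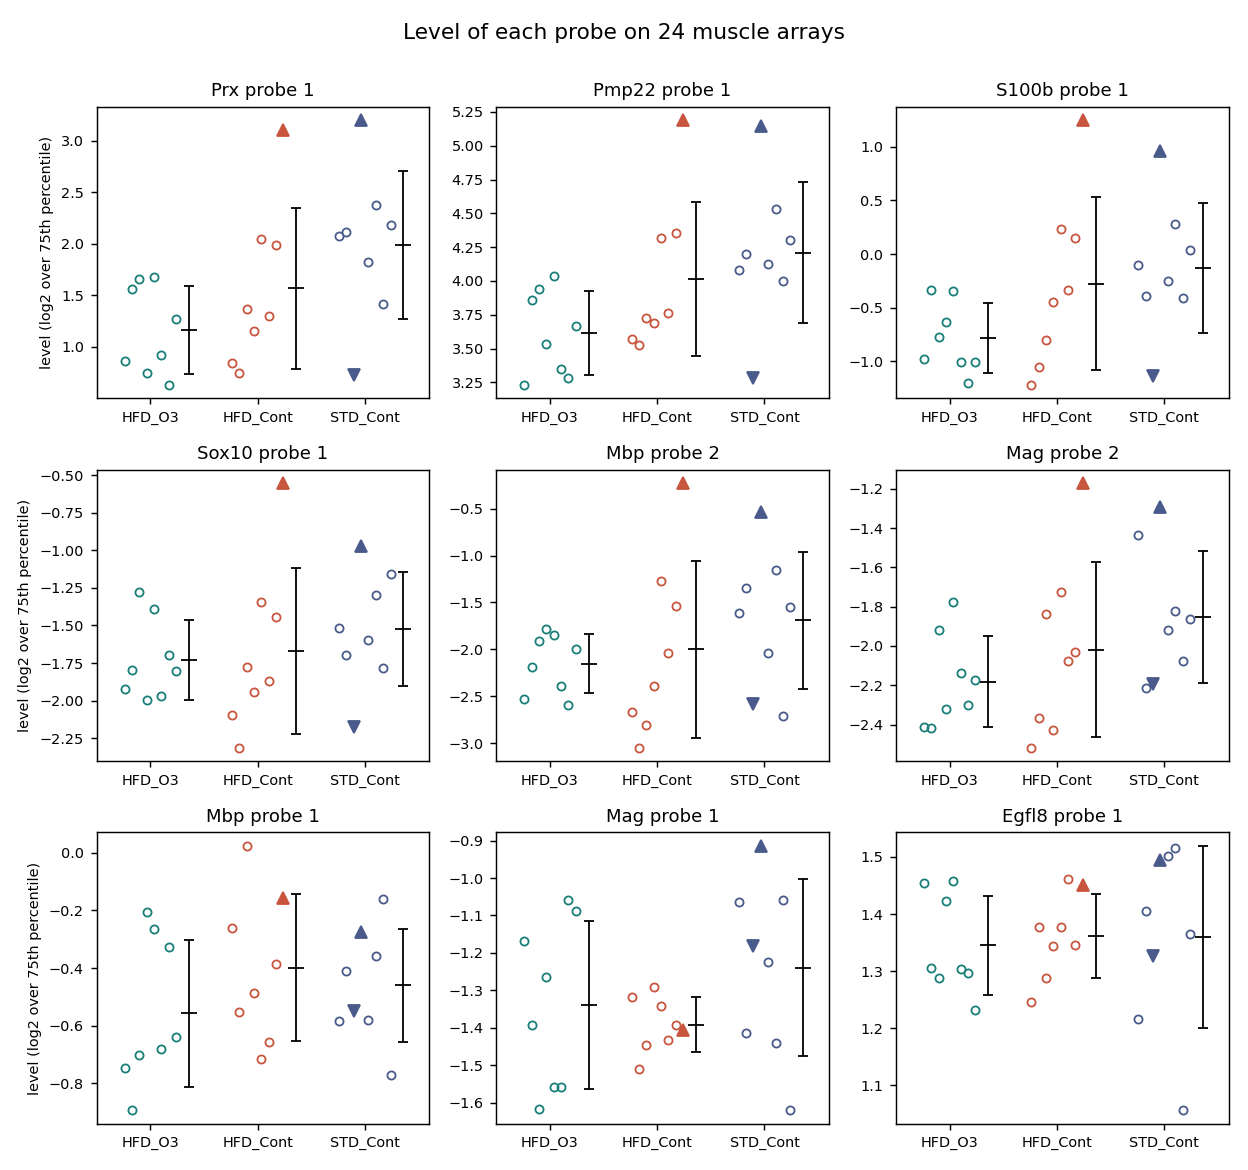
Level of 9 probes on each array, as log2 signal relative to the array's 75th percentile, in HFD_O3, HFD_Cont and STD_Cont (8 arrays each, in replicate order), with the mean ± SD as a black bar. Upward triangles are HFD_Cont 8 and STD_Cont 4, downward triangles STD_Cont 3. In Prx, Pmp22, S100b, Sox10, Mbp probe 2 and Mag probe 2 the upward triangles are the highest arrays of all 24, while Mbp probe 1, Mag probe 1 and Egfl8 do not share that order.

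Mbp encodes myelin basic protein, which holds the cytoplasmic faces of compact myelin together. Other transcripts of the Mbp gene are also made outside myelin. Its brightest probe stood for the gene and had a median of −0.66 in HFD_O3 (−0.89 to −0.21) against −0.44 in HFD_Cont (−0.72 to 0.02) and −0.48 in STD_Cont (−0.77 to −0.16), and the groups overlapped over most of their range. Its log2 difference was −0.10 ± 0.12 in HFD_O3 against STD_Cont (limma, adjusted p = 0.821), −0.16 ± 0.12 in HFD_O3 against HFD_Cont (limma, adjusted p = 0.792) and 0.06 ± 0.12 in HFD_Cont against STD_Cont (limma, adjusted p = 0.862). The other Mbp probes, designed to a different transcript record, were dimmer and more spread. Probe 2 lay between −2.59 and −1.78 in HFD_O3, −3.05 and −0.23 in HFD_Cont and −2.72 and −0.54 in STD_Cont, and all 8 HFD_O3 arrays lay below the STD_Cont median. Its log2 difference was −0.46 ± 0.34 in HFD_O3 against STD_Cont (limma over all kept probes, adjusted p = 0.679). Probe 3 was well above background on 0 of 8 arrays in HFD_O3, 3 of 8 in HFD_Cont and 6 of 8 in STD_Cont. It was kept through STD_Cont alone, so its values support nothing here. Its STD_Cont mean was at least 1.38-fold higher than the detection limit in HFD_O3. The bound was not tested, and the measured difference, with signals below background, had adjusted p = 0.250 (limma over all kept probes). The corresponding bound for HFD_Cont over HFD_O3 was at least 1.05-fold. Both bounds set the bright group's mean against, on each HFD_O3 array, the higher of the probe's own signal and the lowest signal marked well above background. The means of HFD_Cont and STD_Cont include arrays on which the probe was not well above background, so neither bound is firm.

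Mag encodes myelin-associated glycoprotein, an adhesion molecule of the myelin membrane that faces the axon. Its probes lie 8414 bases apart on the same strand. The brighter probe 1 had medians of −1.33 in HFD_O3, −1.40 in HFD_Cont and −1.20 in STD_Cont. Its SD was 0.22 in HFD_O3, 0.07 in HFD_Cont and 0.24 in STD_Cont. Its log2 difference was −0.10 ± 0.09 in HFD_O3 against STD_Cont (limma, adjusted p = 0.774), 0.05 ± 0.09 in HFD_O3 against HFD_Cont (limma, adjusted p = 0.918) and −0.15 ± 0.09 in HFD_Cont against STD_Cont (limma, adjusted p = 0.459). Probe 2 had medians of −2.24 in HFD_O3, −2.05 in HFD_Cont and −1.89 in STD_Cont. It was below the STD_Cont median on 7 of 8 HFD_O3 arrays and had a log2 difference of −0.33 ± 0.17 in HFD_O3 against STD_Cont (95% interval −0.68 to 0.01; limma, adjusted p = 0.484).

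Sox10, a transcription factor that the Schwann cell lineage depends on, had medians of −1.80 in HFD_O3 (−2.0 to −1.27), −1.82 in HFD_Cont (−2.31 to −0.55) and −1.55 in STD_Cont (−2.17 to −0.97). The groups overlapped, with 6 of 8 HFD_O3 arrays below the STD_Cont median. The log2 difference was −0.21 ± 0.20 in HFD_O3 against STD_Cont (limma, adjusted p = 0.776), −0.06 ± 0.20 in HFD_O3 against HFD_Cont (limma, adjusted p = 0.964) and −0.15 ± 0.20 in HFD_Cont against STD_Cont (limma, adjusted p = 0.792).

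S100b encodes a calcium-binding protein found in Schwann cells and other glia. It had medians of −0.87 in HFD_O3 (−1.20 to −0.33), −0.39 in HFD_Cont (−1.22 to 1.24) and −0.18 in STD_Cont (−1.14 to 0.96). All 8 HFD_O3 arrays lay below the STD_Cont median, and 5 STD_Cont arrays were above every HFD_O3 array. Its change of −0.66 ± 0.29 in HFD_O3 against STD_Cont (95% interval −1.26 to −0.06) had adjusted p = 0.382 in limma. Against HFD_Cont, HFD_O3 differed by −0.50 ± 0.29, the lowest of the members in that comparison (limma, adjusted p = 0.737). HFD_Cont differed from STD_Cont by −0.15 ± 0.29 (limma, adjusted p = 0.867).

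Egfl8 encodes a secreted protein with EGF-like domains. Its brightest probe ran from 1.23 to 1.46 in HFD_O3, 1.25 to 1.46 in HFD_Cont and 1.06 to 1.51 in STD_Cont. Its log2 difference was −0.01 ± 0.06 in HFD_O3 against STD_Cont (95% interval −0.14 to 0.11), −0.02 ± 0.06 in HFD_O3 against HFD_Cont (−0.14 to 0.11) and 0.00 ± 0.06 in HFD_Cont against STD_Cont (−0.12 to 0.12). The adjusted p was 0.959, 0.969 and 0.995 in that order of comparisons (limma). A second probe was well above background on 6 of 24 arrays, 2 in each group. Pmp2 encodes a lipid-binding protein of compact myelin. Its single probe was well above background on 0 of 24 arrays, with a median of −6.01 in HFD_O3, −5.97 in HFD_Cont and −6.19 in STD_Cont, so no change can be given.

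None of the 7 tested genes passed the test in HFD_O3 against STD_Cont (0 of 7), where 0.597% of all names did. At an unadjusted p under 0.05, Prx, Pmp22 and S100b passed, 3 of 7, against 11.2% of all names. These 3 varied together over the arrays (r 0.93 to 0.97 with group means subtracted), so they are not separate results. The members were chosen with earlier results of these data known. The median change of the members was −0.21 and that of all names −0.02, and 7 of 7 members were negative, Egfl8 at only −0.01. Between HFD_O3 and HFD_Cont 0 of 7 passed, where 0% of all names did. At the unadjusted threshold 0 of 7 passed, against 7.08% of all names, and the medians were −0.16 for the members and −0.01 for all names, with 6 of 7 members negative. In HFD_Cont against STD_Cont 0 of 7 passed, where 2.91% of all names did. At the unadjusted threshold again 0 of 7 passed, against 16.6% of all names, with medians of −0.15 and 0.00 and 5 of 7 members negative.

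**Figure D2:**
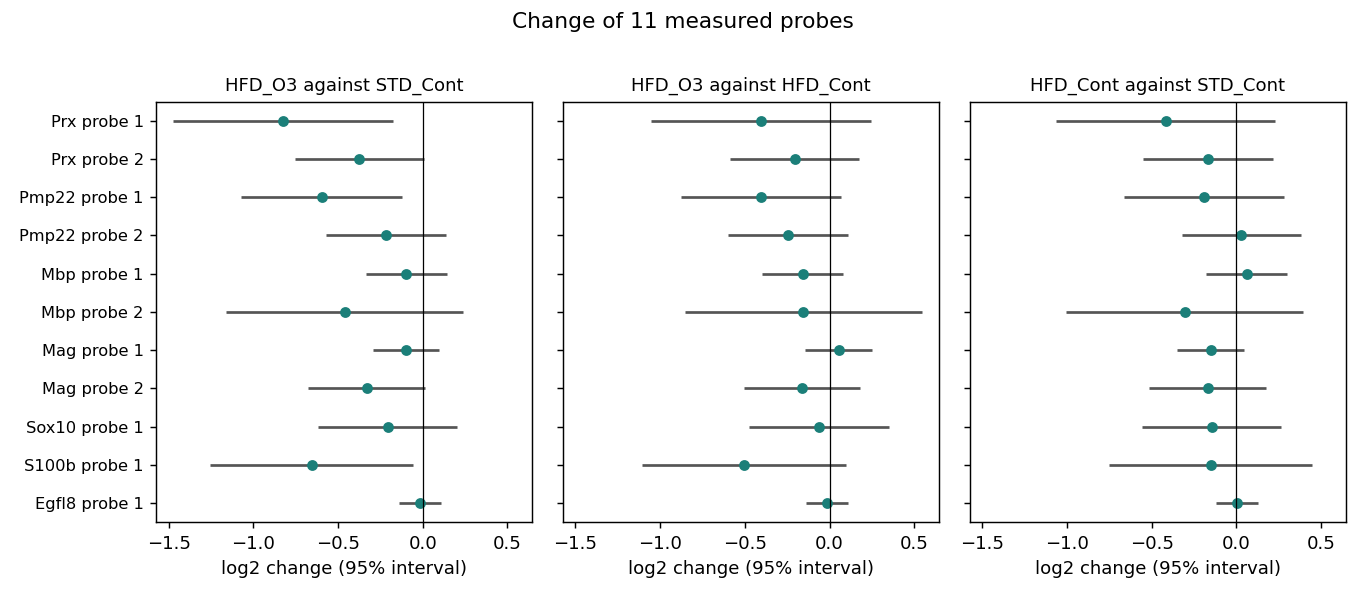
Log2 change of 11 kept probes with its 95% interval from limma, in 3 comparisons; Mbp probe 3, which has only a bound in HFD_O3, is left out. In HFD_O3 against STD_Cont the intervals of Prx probe 1, Pmp22 probe 1 and S100b lie below 0 before adjustment over all probes, and in the other comparisons all 11 intervals include 0.

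Through their brightest probes, Prx, Pmp22 and S100b were lower in HFD_O3 than in STD_Cont on each of the 3 slides. Their sign between HFD_O3 and HFD_Cont depended on the slide. Being the members under the unadjusted threshold in HFD_O3 against STD_Cont, they get no separate support from the slides. On slide 1 Pmp22 probe 2 was 0.84, 0.17 and 0.24 in HFD_O3, on both sides of the 0.36 and 0.31 in STD_Cont. In HFD_O3 against STD_Cont, the difference of Prx was −0.74, −0.80 and −1.04 on slides 1, 2 and 3, that of Pmp22 −0.47, −0.54 and −0.80 and that of S100b −0.44, −0.52 and −1.07. Between HFD_O3 and HFD_Cont the slides gave Prx at 0.37, −0.49 and −1.18, Pmp22 at 0.07, −0.36 and −0.96 and S100b at 0.33, −0.55 and −1.46. Slide 3 holds HFD_Cont 8. Without HFD_Cont 8 the change in HFD_O3 against HFD_Cont was −0.19 for Prx, −0.24 for Pmp22 and −0.29 for S100b, and 0.10 for Sox10. Without the same array, HFD_Cont against STD_Cont came to −0.64 for Prx, −0.36 for Pmp22, −0.37 for S100b and −0.30 for Sox10. Without STD_Cont 4 it came to −0.25 for Prx, −0.06 for Pmp22, 0.00 for S100b and −0.07 for Sox10. Without STD_Cont 3 it was −0.32 for Pmp22, −0.30 for S100b and −0.24 for Sox10, and without HFD_Cont 2 it was −0.12, −0.04 and −0.05 for the same genes. In that comparison HFD_Cont 1, HFD_Cont 3 and STD_Cont 6 also moved S100b over 1.5 times when left out, to −0.02, −0.08 and −0.09, and HFD_Cont 1 and STD_Cont 8 moved Sox10 to −0.08 and −0.09. In HFD_O3 against STD_Cont, leaving out any 1 array kept Prx between −1.0 and −0.65, Pmp22 between −0.73 and −0.46 and S100b between −0.80 and −0.50, with lowest adjusted p of 0.148, 0.150 and 0.254 in limma. Sox10 was −0.13 there without STD_Cont 4, and between HFD_O3 and HFD_Cont it lay between −0.15 and 0.10 with 1 array left out. Changes of Egfl8, of Mbp and of Mag probe 1 near 0 also moved over 1.5 times when single arrays were left out, and none passed the test.

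Prx, Pmp22, S100b and Sox10 varied together from array to array. With the group means subtracted, Pearson's r over 24 arrays was 0.97 for Pmp22 with Prx, 0.94 for Pmp22 with S100b, 0.93 for Prx with Sox10 and for Prx with S100b, 0.92 for Pmp22 with Sox10 and 0.88 for Sox10 with S100b. Spearman's rho for these 6 pairs lay between 0.77 and 0.94. Each r had a two-sided permutation p of 1e-05, the smallest that 100000 permutations within groups can give, and an adjusted p of 3.5e-05 over the 21 member pairs. HFD_Cont 8 and STD_Cont 4 were far from the rest: Prx was 3.11 and 3.20 there and at most 2.37 on the other arrays. Without the 2 arrays farthest from the median, r stayed between 0.78 and 0.95. Within slides r was 0.27 to 0.91 on slide 1, 0.95 to 0.99 on slide 2 and 0.91 to 0.98 on slide 3, over 8 arrays each. The other 15 pairs, all with Mbp, Mag or Egfl8 through their brightest probes, had r between −0.23 and 0.44. Of these, S100b with Egfl8 passed by rho only (rho 0.50, adjusted permutation p = 0.0468; r 0.44, adjusted permutation p = 0.0969).

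**Figure D3:**
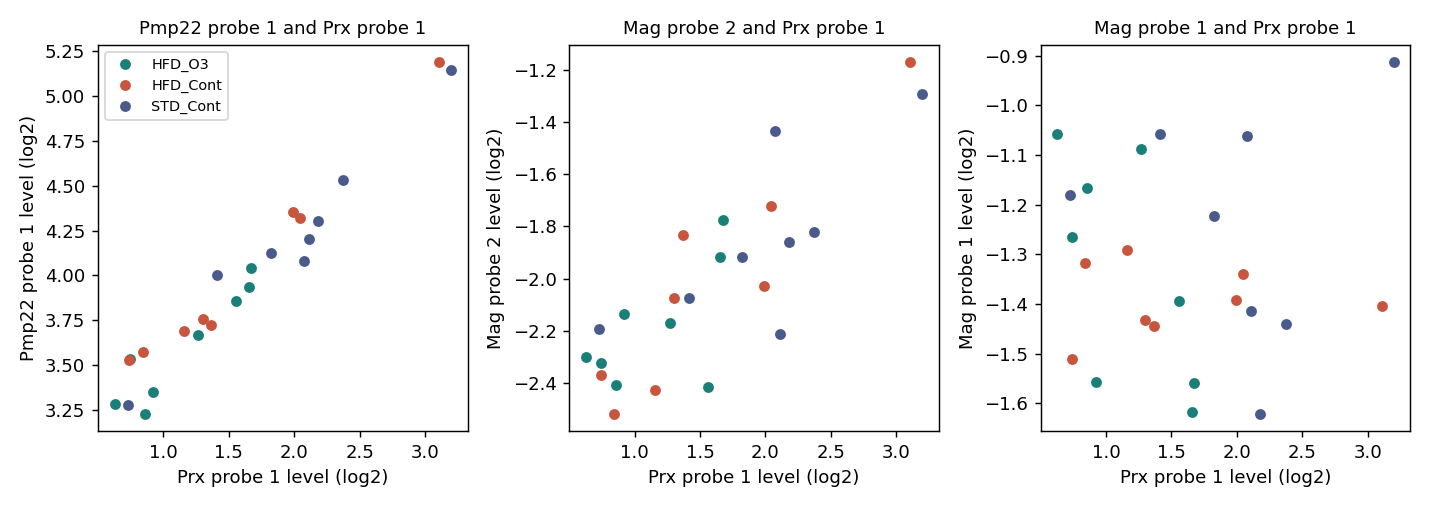
Level of Pmp22 probe 1, Mag probe 2 and Mag probe 1 against that of Prx probe 1 on the 24 arrays (log2 signal relative to the 75th percentile), coloured by group. Pmp22 and Mag probe 2 climb with Prx (r 0.97 and 0.81 with group means subtracted), while Mag probe 1 does not (r −0.13).

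The second probes of Mbp and Mag behaved unlike the brightest ones. Mbp probe 2 correlated with Prx at r = 0.90 and Mag probe 2 at 0.81, whereas Mbp probe 1 and Mag probe 1 had r = 0.06 and −0.13. Mag probe 1 and Mag probe 2 themselves had r = −0.02, and Mbp probe 1 and Mbp probe 2 had 0.06. The paired probes of Prx and of Pmp22 had r = 0.86 and 0.77, although on slide 1 alone these were −0.39 and −0.90. Of the 55 pairs among the 11 kept probes other than Mbp probe 3, 30 had r of 0.5 or more. For Mbp and Mag, whether the gene followed the other members thus depended on the probe.

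**Figure D4:**
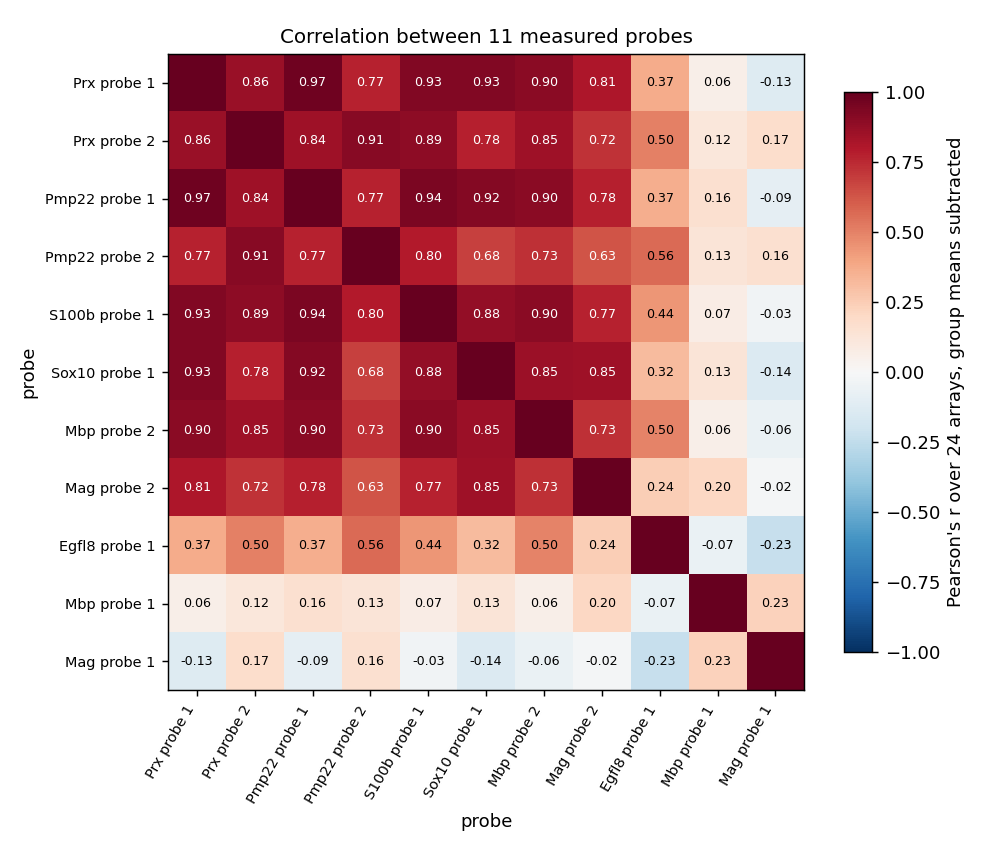
Pearson's r between 11 kept probes over 24 arrays, with group means subtracted and Mbp probe 3 left out. The 8 probes from Prx probe 1 to Mag probe 2 all have positive r with each other, from 0.63 to 0.97, while the rows of Mbp probe 1 and Mag probe 1 stay near 0 and Egfl8 lies between. These 8 were grouped after their r was seen. Without HFD_Cont 8 and STD_Cont 4, Pmp22 probe 2 with Mag probe 2 has r = 0.31. On slide 1 alone some of these pairs are negative, such as Mbp probe 2 with Prx probe 2 at −0.83.

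HFD_Cont 8 and STD_Cont 4, high in these genes, were not outside the other arrays in overall brightness. Their share of spots well above background was 55.4 and 52.2%, where all arrays ranged from 52.0 to 60.7%, so STD_Cont 4 lay near the low end. Their 75th percentile signals were 361.2 and 360.7, within the range of 231.1 to 425.5 over all arrays. STD_Cont 3, the lowest STD_Cont array for Prx, Pmp22, S100b and Sox10, had 53.6% and 361.7. The SD of Prx was 0.43 in HFD_O3, 0.78 in HFD_Cont and 0.72 in STD_Cont, and the difference in spread was not tested.

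Of 18 other genes of myelinating Schwann cells, a list covering compact myelin, junctions, lipid synthesis and transcription, 16 were kept and 0 of 16 passed limma's test in any of the 3 comparisons. At an unadjusted p under 0.05, 4 of 16 passed in HFD_O3 against STD_Cont (Gldn, Ncmap, Mal and Cnp, all below 0), where 11.2% of all names did. In HFD_O3 against HFD_Cont 2 of 16 passed (Gldn and Cnp, both below 0), against 7.08% of all names. In HFD_Cont against STD_Cont 1 of 16 passed, Sh3tc2 at 0.46 ± 0.18 (limma, adjusted p = 0.189), against 16.6% of all names. Mal, Cnp and Sh3tc2 were named after their values were seen. In HFD_O3 against STD_Cont 13 of 16 were below 0 with a median of −0.31, against −0.02 over all names. Between HFD_O3 and HFD_Cont 16 of 16 were below 0 with a median of −0.18, against −0.01. The mean level of the list was highest in HFD_Cont on HFD_Cont 8, at −0.48. Its median over arrays was −1.39 in HFD_Cont and −1.49 in HFD_O3. The count was not repeated without HFD_Cont 8, and genes that vary together are not separate observations. In HFD_Cont against STD_Cont 11 of 16 were below 0 with a median of −0.11. Gjc3, counted below 0 in each of the 3 comparisons, was kept through STD_Cont alone. It was well above background on 6 of 8 arrays there, 3 of 8 in HFD_O3 and 2 of 8 in HFD_Cont. Its share in these counts and medians thus supports nothing. Gldn, gliomedin, which Schwann cell microvilli use to gather sodium channels at nodes of Ranvier, had the smallest p: it ran from −4.21 to −3.0 in HFD_O3, −3.89 to −1.90 in HFD_Cont and −3.64 to −2.08 in STD_Cont, with a log2 difference of −0.93 ± 0.26 in HFD_O3 against STD_Cont (limma, adjusted p = 0.105). Ncmap, a myelin membrane protein of peripheral nerve, differed by −1.07 ± 0.39 in the same comparison (limma, adjusted p = 0.264). Between HFD_O3 and HFD_Cont, Gldn differed by −0.60 ± 0.26 (limma, adjusted p = 0.659). Gldn was well above background on 6 of 8 HFD_O3 arrays, and on 8 of 8 in HFD_Cont and in STD_Cont. The size of both Gldn differences thus depends in part on signals near background. Against the mean z score of the 7 members over the arrays, 12 of 16 of these genes had r of 0.5 or more, with a median of 0.78. The share of all names at that r is not given here. The mean z score was 1.74 on HFD_Cont 8 and 1.58 on STD_Cont 4 and at most 0.64 on the other arrays. For this list r was not repeated without these 2 arrays. Egr2, the myelination transcription factor, had r = 0.50 and a log2 difference of 0.07 ± 0.23 in HFD_O3 against STD_Cont, a gene chosen here after its values were seen.

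**Figure D5:**
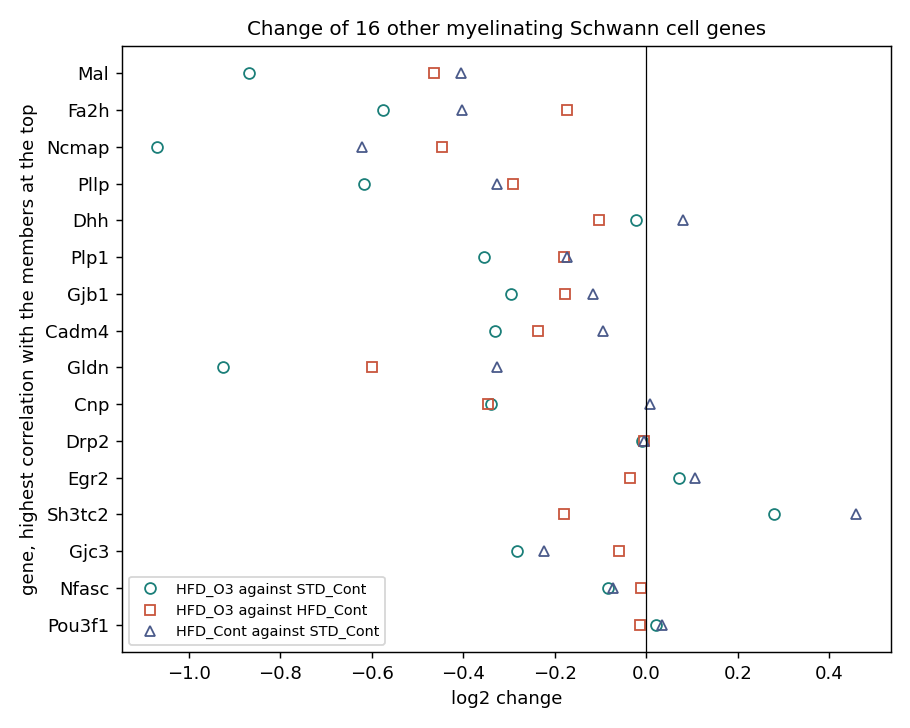
Log2 change of 16 other myelinating Schwann cell genes in 3 comparisons, ordered by their correlation with the mean z score of the members. In HFD_O3 against HFD_Cont all 16 lie below 0, and in HFD_O3 against STD_Cont the lowest is Ncmap at −1.07. Gjc3 was kept through STD_Cont alone, so its points support nothing.

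Among the 10 genes whose arrays followed the members most closely, by Pearson's r with the mean z score of the 7 members over 24 arrays with group means subtracted, 9 were Stmn1 (0.95), Fam178b (0.94), Plekha4 (0.91), Gng2 (0.91), Paqr6 (0.90), Aatk (0.90), Cntf (0.89), Bcas1 (0.89) and Mal (0.89). Without HFD_Cont 8 and STD_Cont 4, their r lay between 0.74 and 0.88. Cntf, ciliary neurotrophic factor, which Schwann cells make, had a mean of 0.54 ± 0.27 in HFD_O3 and 1.25 ± 0.53 in STD_Cont (SD, n = 8 each), a log2 difference of −0.71 ± 0.24 (limma, adjusted p = 0.198).

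Genes of other cells of the nerve and of the muscle had lower correlations with the members over the arrays. Non-myelinating, immature and repair Schwann cell genes, 7 of 14 kept, had a median r of 0.12 with the members' mean z score, and Sox2 was above background on no array. The signalling genes through which axons and Schwann cells act on each other, 13 of 14 kept, had a median r of 0.05, with Lgi4, a Schwann cell ligand needed for myelination, at 0.73. Lgi4, and Itgb4 below, were chosen after their values were seen. Axon and neuron genes, 5 of 10 kept, had a median r of 0.11, and Nefh was above background on no array. Perineurium genes, 4 of 4 kept, had a median of 0.32, with Itgb4 at 0.75. Of the oligodendrocyte list 2 of 8 genes were kept, and Opalin and Olig1 were above background on no array. In these lists, perineurium apart, 0 of 27 genes passed limma's test in any comparison. At an unadjusted p under 0.05, 3 of 27 passed in HFD_O3 against STD_Cont, 2 in HFD_O3 against HFD_Cont and 4 in HFD_Cont against STD_Cont, where 11.2, 7.08 and 16.6% of all names did. Cldn1, a tight junction protein in the perineurium list, fell in HFD_Cont against STD_Cont by 0.48 ± 0.12 on the log2 scale (limma, adjusted p = 0.0267), the 1 gene of that list to pass in any comparison. The endothelial gene Kdr rose by 0.45 ± 0.10 on the log2 scale in the same comparison (limma, adjusted p = 0.0210). It was the only 1 of 6 endothelial genes to pass there, and 4 of the 6 were below 0, with a median of −0.01. In that comparison 2.91% of all names passed.

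White adipocyte genes, all 10 kept, also lay below 0 between HFD_O3 and HFD_Cont. There 9 of 10 were below 0 with a median of −1.01, and the mean level of the list ran from 0.56 to 3.44 in HFD_O3, 0.74 to 3.76 in HFD_Cont and 0.57 to 3.17 in STD_Cont. Over the arrays these genes had a median r of 0.20 with the members' mean z score and at most 0.29. None passed limma's test in any comparison (0 of 10), and at an unadjusted p under 0.05 only Lipe passed, in HFD_O3 against STD_Cont (−0.29 ± 0.13; limma, adjusted p = 0.410), 1 of 10 against 11.2% of all names. Fibroblast genes were below 0 in 7 of 7 cases between HFD_O3 and HFD_Cont with a median of −0.25, and tendon genes in 5 of 5 with a median of −0.33, and their median r with the members was 0.01 and 0.17. The median r was −0.26 for endothelial, −0.09 for macrophage, 0.07 for satellite cell and 0.07 for erythroid genes. In HFD_O3 against STD_Cont, erythroid genes were below 0 in 4 of 4 cases (median −0.29) and perineurium genes in 4 of 4 (median −0.19). Macrophage genes were below 0 in 5 of 6 (median −0.16) and endothelial genes in 1 of 6 (median 0.09). Unadjusted limma p was under 0.05 there for 3 of 4 erythroid and 2 of 4 perineurium genes, against 11.2% of all names. None of them passed after adjustment. The part of these lists in the members' changes was not tested.

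RefSeq windows of 250 bases before a transcript start were at hand for 5 of the 8 members (GRCm38.p6). A window of Prx and a window of Mag, each with a match, are shown, with matches to the searched letters in capitals. Mag probe 2 followed Prx probe 1 over the arrays (r 0.81), but Pmp22 and S100b, not shown, followed it more closely (r 0.97 and 0.93).
Prx, chr7:27499074-27499323, plus strand: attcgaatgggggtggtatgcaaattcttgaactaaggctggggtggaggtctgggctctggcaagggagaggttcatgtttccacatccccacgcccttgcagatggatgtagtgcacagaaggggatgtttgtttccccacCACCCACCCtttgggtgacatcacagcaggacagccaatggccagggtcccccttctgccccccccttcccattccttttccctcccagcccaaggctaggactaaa
Mag, chr7:30914923-30915172, minus strand: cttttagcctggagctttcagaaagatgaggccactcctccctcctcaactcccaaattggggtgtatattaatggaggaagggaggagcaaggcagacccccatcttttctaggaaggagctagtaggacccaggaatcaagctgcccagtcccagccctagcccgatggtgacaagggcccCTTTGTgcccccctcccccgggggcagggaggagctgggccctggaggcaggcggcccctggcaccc
The letters GNGTGGGNG (Egr type) on either strand occurred in 12.7% of 32851 windows of the same length and in the Prx window. The letters ACAAAG (Sox-family core) on either strand occurred in 16.5% of windows, and among the members in Mag and in Egfl8. Another Mag window, chr7:30914322-30914571, held no match. A match is a description of letters in a window and says nothing about binding. The searched letters were not found in the windows of Pmp22 and S100b. Sox10, Mbp and Pmp2 were not analysed here for promoters.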

How the data were processed

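RNA was isolated with Trizol and labelled with Cy3 for one-colour arrays, per the labels' protocols. The deposited scanner files hold spot intensity, read with Agilent Feature Extraction 10.10.1.1 per the submitters' processing notes, background-subtracted but not normalized between arrays. The authors' deposited value table holds log2 values of 30124 probes, which tracked the log2 mean spot signal of their own arrays. The authors' further steps are not given in the sources here, apart from limma in the processing notes. Here the log2 processed intensity of unflagged spots, averaged per probe, was reduced by each array's 75th percentile. The 29245 kept probes and 19937 gene names were tested with lmFit and eBayes of limma 3.58.1 (R 4.3.3) over all 24 arrays, two-sided and without a block, with Benjamini-Hochberg adjustment and a threshold of 0.05, and the pipeline was tested on simulated data. Nothing in the labels says which samples share litters or cages, so p-values measure the spread between these samples. Members and lists were chosen with earlier results of these data known. Named were all members with their probes, of each other list up to 4 genes past the threshold or otherwise up to 2 with the smallest p, and the 10 genes most like the members' mean z score. Genes named outside this rule are said to be. One item within these lists is not reported here and was left out of the list counts. Symbols came from RefSeq for 32994 probes. Alternatives covered background correction, scaling, filter, probe choice, slide, replicate number, variance model, the deposited values and each array left out.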

Additional observations from a re-analysis of the deposited data

How the results depend on the processing

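None of the 7 members passed the test in any comparison under any alternative (0 of 7), with a lowest adjusted p of 0.260 in limma for a gene's value, or 0.148 with an array left out. With every probe on its own the lowest was 0.250, for Mbp probe 3, which is below background in HFD_O3. Of 357 member changes under other settings 30 had the other sign, none of which passed. They were, in HFD_Cont against STD_Cont, Egfl8 −0.00153 (normexp), −0.000918 (median scaling), −0.00106 (slide as a random block), −0.00756 (slide 1), −0.0800 (slide 2) and −0.0123 (array weights), Mbp −0.211 (mean of a gene's probes) and −0.133 (slide 2), S100b 0.0354 (slide 2), and on slide 3 Pmp22 0.157, Prx 0.144, S100b 0.383 and Sox10 0.123. In HFD_O3 against HFD_Cont they were Egfl8 0.00846 (median scaling), 0.0455 (slide 1) and 0.0340 (slide 2), Mag −0.0546 (mean of a gene's probes), −0.145 (slide 2) and −0.0126 (array weights), Mbp 0.217 (slide 2), Sox10 0.0358 (array weights) and 0.0108 (slide and array row as block, chosen after seeing the data), and on slide 1 Pmp22 0.0668, Prx 0.372, S100b 0.331 and Sox10 0.399. In HFD_O3 against STD_Cont they were Egfl8 0.00754 (median scaling) and 0.0380 (slide 1), Mbp 0.0844 (slide 2) and Mag 0.299 (slide 3). The cause was not tested.

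Leaving out each array in turn changed the sign of 13 of 504 member changes. The ranges were −0.0421 to 0.0235 for Egfl8 and −0.369 to 0.00430 for S100b in HFD_Cont against STD_Cont, −0.0584 to 0.00718 for Egfl8 in HFD_O3 against STD_Cont, and −0.155 to 0.0967 for Sox10 in HFD_O3 against HFD_Cont. The count of member pairs with r of 0.5 or more was 6 in the full data and 6, 13 and 7 on slides 1, 2 and 3 alone. The 6 on slide 1 were not the same pairs: Sox10 with S100b had r = 0.27 there and Mbp with Sox10 had 0.62.

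Same-numbered arrays of 2 groups correlated little over the 8 replicate numbers, with medians of 0.06, 0.03 and 0.04 in the 3 comparisons. The lowest values were −0.13, −0.14 and −0.10 and the highest 0.37, 0.33 and 0.16, with 2 of 8 over 0.1 in each. These correlations cannot exclude that samples were paired, for example by litter or cage. With the replicate block Prx kept −0.82 ± 0.33 in HFD_O3 against STD_Cont (limma, adjusted p = 0.314), and 628, 0 and 89 names were called in HFD_Cont against STD_Cont, HFD_O3 against HFD_Cont and HFD_O3 against STD_Cont.

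Over all names, 581 were called in HFD_Cont against STD_Cont, against 177 with median scaling, 135 without a filter, 73 with slide and array row as block, 0 on each slide alone, 1166 with only the groups compared, 1187 with array weights and 182 to 977 with an array left out. In HFD_O3 against STD_Cont 119 were called, against 62, 46 and 47 under the first 3, 0 on each slide alone, 36 with only the groups compared and 68 to 343 with an array left out. HFD_O3 against HFD_Cont had 0 calls and 1412 names at an unadjusted p under 0.05, and 1 call without HFD_Cont 3. The number of arrays limits the precision, and Pmp2 and Mbp probe 3 are limited by signal over background.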
